A study of Mus musculus with 30 samples.

Results

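Compaction, epithelial sealing and cavitation of the mouse morula were followed through 8 named genes, *Cdh1*, *Tjp1*, *Cgn*, *Cldn4*, *Cldn6*, *Dsp*, *Aqp3* and *Atp1b1*. They were taken by name, not by any measured value, from the 55487 genes counted in each of 23 single embryos. All 8 were found in the count tables and passed the filter on low counts in every fit. The study asked how loss of DIS3, a ribonuclease associated with the RNA exosome, changes the transcripts of embryos that stop before a blastocoel forms. To answer this question, the polyadenylated RNA of single embryos was sequenced. The embryos came from matings of *Dis3* heterozygous (het) mice, so that the mother of every embryo, null ones included, carried an intact allele, and each embryo was genotyped from the DNA left after RNA capture. The null allele lacks exons 3 to 5 and was made with CRISPR-Cas9. Embryonic day 2.5 (E2.5) was covered by 6 wild-type, 2 het and 4 null embryos and the later stage E2.75 by 3 wild-type, 5 het and 3 null ones. The growth notes give culture in KSOM, and the labels do not say which embryos shared a mother or a litter, so p-values measure the spread between these single embryos.

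In the 8-cell embryo, E-cadherin (*Cdh1*) draws the blastomeres together in compaction. The outer cells then build an epithelium. Tight junctions seal it, with ZO-1 (*Tjp1*) and cingulin (*Cgn*) as cytoplasmic scaffold and claudins as the strands between the membranes, and desmosomes, anchored to keratin by desmoplakin (*Dsp*), strengthen it. The Na/K-ATPase, of which *Atp1b1* encodes a beta subunit, pumps sodium across this layer, and water follows through aquaporins such as *Aqp3* to fill the blastocoel.

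On GRCm38, *Cdh1* (ENSMUSG00000000303) lies on the plus strand of chromosome 8 (106603351 to 106670246), *Cldn6* (ENSMUSG00000023906) on the plus strand of chromosome 17 (23679249 to 23682446) and *Dsp* (ENSMUSG00000054889) on the plus strand of chromosome 13 (38151294 to 38198577). The other members are on minus strands, with *Tjp1* (ENSMUSG00000030516) on chromosome 7 (65296165 to 65527781), *Cgn* (ENSMUSG00000068876) on chromosome 3 (94760069 to 94786492), the single-exon gene *Cldn4* (ENSMUSG00000047501) on chromosome 5 (134945119 to 134946934), *Aqp3* (ENSMUSG00000028435) on chromosome 4 (41092722 to 41098183) and *Atp1b1* (ENSMUSG00000026576) on chromosome 1 (164437109 to 164458355). The reads were counted without regard to strand. Exons of *Nme7* on the other strand share 575 bp (18.7%) of the exons of *Atp1b1*, and *Gm10129* shares 499 bp (5.17%) of those of *Dsp*, so reads there cannot be assigned to either gene.

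The libraries held 1690192 to 14015980 gene counts (median 8030848), and 2 of the 3 null libraries at E2.75 (1914128 and 1690192) were the shallowest. All levels are given after TMM normalization, in which library sizes are scaled by the bulk of the genes. *Dis3* itself, as the check of genotype, was at 18.0 to 147 counts per 1000000 (CPM) in wild-type, 30.4 to 59.2 in het and 0 to 21.5 in null embryos, and the value of E2.5 wild-type replicate 6 (18.0) lay within the null range. The share of reads that fell outside annotated exons was 32.3% to 43.9% of null, 20.99% to 33.4% of wild-type and 21.2% to 27.9% of het libraries. The 11 trophectoderm markers together were at 279 to 525 CPM in null, 323 to 656 in wild-type and 449 to 1149 in het embryos, and *Gata2* and *Elf5* of this list were at 0 in 21 and 19 of 23 embryos. Of the 9 markers tested, *Gata3* (-2.12), *Krt18* (-2.95) and *Fabp3* (-3.28 on the log2 scale) fell in null against het with the stages merged. The thresholds given below were met there by 5.73% of all genes. Against wild-type, *Fabp3* alone of the 9 met them with the stages merged (-2.26). Mean *Gata3* was at 39.0 CPM in null, 36.0 in wild-type and 169 in het embryos. Mean *Krt18* was at 13.4, 41.6 and 103 CPM in this order. The 8 pluripotency markers were at 729 to 2153 CPM in total. Of the 10 cumulus and granulosa cell markers, *Inha*, *Inhba* and *Ptx3* were at 0 in every embryo, and the sum, carried by *Amhr2* (mean 21.8 CPM) with *Has2* in 1 embryo, was at 20.7 to 68.8 CPM in null, 1.47 to 33.0 in wild-type and 5.65 to 33.9 in het embryos. The oocyte markers summed to 10.2 to 105 CPM, and the sums of the oviduct and blood markers stayed at or under 12.2 and 23.3 CPM. The part of these differences in the results that follow was not tested. In whole embryos, fewer cells of a type and less RNA per cell cannot be told apart.

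Fold changes are on the log2 scale with their standard error (SE), from edgeR (quasi-likelihood test, p adjusted by Benjamini-Hochberg over all genes tested). To be called, a gene needed an adjusted p below 0.1 together with a log2 fold change above 1 or below -1. Of 8 members in each of 14 comparisons, a single value met these thresholds, and it belonged to *Aqp3*, which rose from E2.5 to E2.75 in null embryos. With an unadjusted p under 0.05 the number of members per comparison ran from 0 to 3, and DESeq2 called between 0 and 2.

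**Figure D1:**
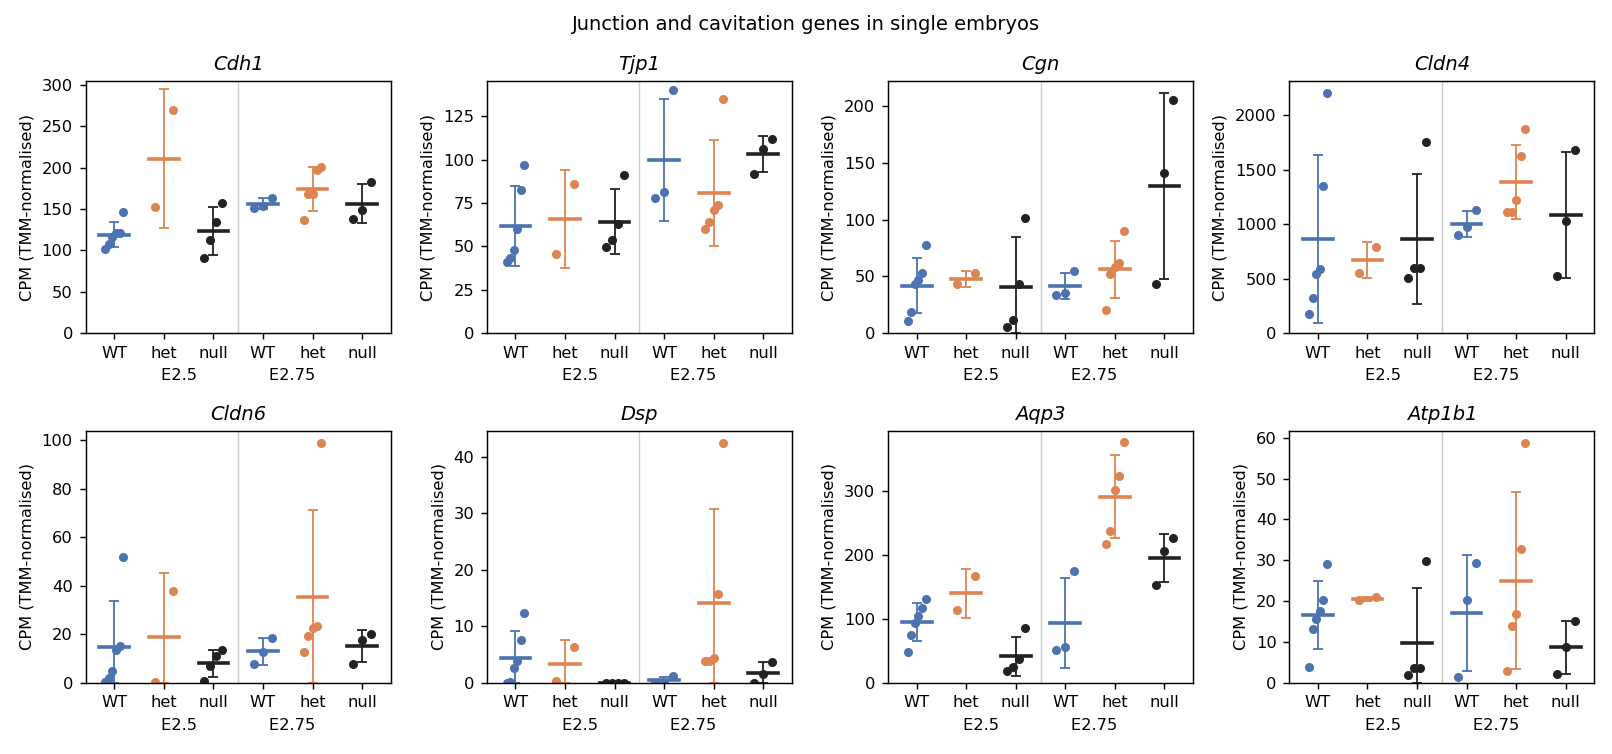
Levels of the 8 genes in each of 23 embryos, in CPM after TMM normalization on linear axes starting at 0, by genotype (WT, wild-type) and stage; points are embryos, horizontal bars are group means and error bars are 1 SD, cut at 0. *Aqp3* in the 3 null embryos at E2.75 (153 to 226 CPM) lies above all 4 null embryos at E2.5 (18.5 to 85.8 CPM), while *Dsp* is at 0 in every null embryo at E2.5.

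*Aqp3*, which encodes a channel for water and glycerol, moved most clearly among the 8. At E2.5 it was at 85.8, 18.5, 24.4 and 36.7 CPM in the 4 null embryos and at 113 and 167 CPM in the 2 het embryos, and in wild-type it ranged from 48.2 to 131 CPM with a median of 98.9. All 4 null embryos were thus below both het embryos, an arrangement that 10.2% of the genes shared, but they overlapped the wild-type range. At E2.75 it was at 153, 226 and 205 CPM in null, at 216, 376, 237, 301 and 323 CPM in het and at 55.4, 174 and 51.0 CPM in wild-type embryos. The 5 het embryos were all above the 3 wild-type embryos, as for 4.18% of the genes, and the 5 were also above both het embryos at E2.5, as for 9.8%. The null embryos overlapped both genotypes of their stage.

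Between the stages, *Aqp3* rose in null embryos by 2.21 ± 0.46 on the log2 scale (adjusted p = 0.0161), where 3% of the genes were called in either direction and 1.24% upwards. Every null embryo at E2.75 was above every null embryo at E2.5, as for 7.1% of the genes. The call held in each of 23 fits that left out 1 embryo, with log2 fold changes from 1.97 to 2.87 and adjusted p from 0.00313 to 0.0797. Without both of the shallow null libraries, which left 1 null embryo at E2.75, the call was lost (log2 fold change 2.35 ± 0.60, adjusted p = 0.143). In wild-type embryos the change was -0.02 ± 0.42 (adjusted p = 1), and in het embryos 1.04 ± 0.52 (adjusted p = 0.559). The difference between the null and the wild-type change was 2.22 ± 0.63, which did not pass the threshold with edgeR (adjusted p = 0.292), where 0% of 18677 genes were called and 2046 had an unadjusted p under 0.05. DESeq2 gave 2.25 ± 0.65 for it (adjusted p = 0.0433), beside 2.31% of all genes called by DESeq2.

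Against het embryos, *Aqp3* in null embryos was at -1.81 ± 0.53 at E2.5 (adjusted p = 0.455), at -0.61 ± 0.36 at E2.75 (adjusted p = 0.427) and at -1.21 ± 0.45 with the stages merged (adjusted p = 0.136), by edgeR's quasi-likelihood test. Against wild-type it was at -1.22 ± 0.43 at E2.5 (adjusted p = 0.197) and at 1.01 ± 0.40 at E2.75 (adjusted p = 0.195), so that the sign turned between the stages. With the stages merged that difference was 0.18 ± 0.42 (adjusted p = 0.914). Het against wild-type gave 1.62 ± 0.38 at E2.75 (adjusted p = 0.328), a comparison in which edgeR called 0% of 14442 genes, 1366 had an unadjusted p under 0.05 and DESeq2 called 220 up and 124 down. DESeq2 called *Aqp3* among them (1.61 ± 0.40, adjusted p = 0.0121), beside 2.22% of all genes. Without E2.75 wild-type replicate 2, the wild-type embryo at 174 CPM, edgeR called both null (1.81, adjusted p = 0.0249) and het (2.44, adjusted p = 0.0271) above wild-type.

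*Atp1b1*, the beta subunit that carries the sodium pump to the membrane, was low and varied widely among embryos of 1 group. At E2.5 the null embryos were at 3.64, 3.57, 1.83 and 29.9 CPM, the het embryos at 20.9 and 20.2 CPM and the wild-type embryos between 3.92 and 29.1 CPM with a median of 16.5. At E2.75 the values were 8.87, 2.05 and 15.1 CPM in null, 16.96, 58.8, 2.82, 13.8 and 32.8 CPM in het and 29.3, 1.45 and 20.4 CPM in wild-type embryos. Null embryos overlapped the other genotypes at both stages, at E2.5 through replicate 4 (29.9 CPM) alone. With the stages merged, null against het was -1.34 ± 0.67 (adjusted p = 0.300) and null against wild-type -0.84 ± 0.63 (adjusted p = 0.607) by edgeR's quasi-likelihood test. Without that embryo they were at -2.01 (adjusted p = 0.121) and -1.51 (adjusted p = 0.261), and null against wild-type at E2.5 went from -0.83 to -2.46 (adjusted p = 0.193), still with no call.

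*Cdh1*, the adhesion molecule of compaction, had the lowest coefficient of variation of the 8 genes with the stages merged, 17.1% in wild-type, 23.8% in het and 21.8% in null embryos. At E2.5 it was at 134, 113, 90.4 and 157 CPM in null, at 270.3 and 152 CPM in het and at 102 to 146 CPM (median 119) in wild-type embryos. At E2.75 it was at 138, 183 and 148 CPM in null, at 137, 201, 169, 197 and 168 CPM in het and at 152, 153 and 164 CPM in wild-type embryos. The genotypes overlapped at both stages, except that both het embryos at E2.5 were above all 6 wild-type embryos, as for 3.09% of the genes. The 3 wild-type embryos at E2.75 also lay above the 6 at E2.5, as for 6.3% of the genes, by 0.39 ± 0.23 (adjusted p = 0.355). Null against het with the stages merged was -0.43 ± 0.20 (adjusted p = 0.258) and null against wild-type 0.07 ± 0.18 (adjusted p = 0.933) by edgeR's quasi-likelihood test, with the smallest SE of the 8 genes in both.

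Among the scaffold proteins, *Tjp1* was at 49.4 to 91.0 CPM in null, 45.9 to 85.9 in het and 40.9 to 97.3 in wild-type embryos at E2.5. At E2.75 it was at 106, 91.8 and 112 CPM in null, at 71.0, 60.3, 135, 73.8 and 63.8 CPM in het and at 140.3, 78.0 and 81.3 CPM in wild-type embryos. All 3 null embryos at E2.75 were above the 4 at E2.5, as for 7.1% of the genes. The stage difference was 0.68 ± 0.37 in null (adjusted p = 0.364) and 0.69 ± 0.34 in wild-type embryos (adjusted p = 0.254) by edgeR's quasi-likelihood test. No comparison of genotypes gave *Tjp1* a log2 fold change beyond 0.33 in size.

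*Cgn*, whose product binds ZO-1, spread most among the null embryos. At E2.5 these were at 101, 11.6, 5.80 and 43.5 CPM, and at E2.75 at 42.9, 142 and 205 CPM. Wild-type embryos ranged from 10.8 to 78.1 CPM at E2.5 and then had 54.6, 33.5 and 35.6 CPM, and het embryos had 52.9 and 43.0 CPM and then 57.9, 61.8, 20.2, 52.0 and 90.2 CPM. The lowest null embryo at E2.75 was within the wild-type range, and the other two were above every other embryo. At this stage null against wild-type was 1.61 ± 0.53 (adjusted p = 0.130) and null against het 1.16 ± 0.46 (adjusted p = 0.203) with edgeR, while DESeq2 called the first (1.65 ± 0.57, adjusted p = 0.0422), beside 13.4% of all genes, and not the second (adjusted p = 0.120). Without the lowest null embryo, replicate 1, edgeR called both, with adjusted p = 0.0573 and 0.0896, and without het replicate 3 it called the first.

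The claudins differed in level and in spread. *Cldn4* ranged from 508 to 1754 CPM in null, 556 to 790 in het and 177 to 2209.6 in wild-type embryos at E2.5, with medians of 598, 673 and 566. At E2.75 it was at 529, 1033 and 1685 CPM in null, at 1110.2 to 1870.2 CPM in het and at 899 to 1128 CPM in wild-type embryos. The 5 het embryos at E2.75 were above the 2 at E2.5, as for 9.8% of the genes. *Cldn6* lay between 0.206 and 52.0 CPM in wild-type, between 0.369 and 99.1 in het and between 0.680 and 20.0 in null embryos. For *Cldn6*, null against het with the stages merged was -1.47 ± 0.81 (adjusted p = 0.360), with het replicate 3 at E2.75 at 99.1 CPM and the other 4 het embryos of that stage at 12.8 to 23.3. For *Cldn4* no genotype comparison gave a log2 fold change beyond 0.46 in size.

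*Dsp*, the plaque protein that ties desmosomes to keratin, was close to the limit of detection. The 4 null embryos at E2.5 had 0 counts, which, taken as up to 3 counts over the group, allows 0.130 CPM. The het embryos at E2.5 were at 6.39 and 0.278 CPM, and the 6 wild-type embryos at 0 to 12.3 CPM with a median of 3.21. Set against those 3 counts over the group, the mean of these embryos was at least 33.9-fold higher in wild-type and at least 25.6-fold higher in het than in null. This bound covers counting error only and not the spread between embryos. At E2.5 edgeR called neither null against wild-type (log2 fold change -8.14) nor null against het (-7.79), while DESeq2 called both, as given below. The wild-type range reached 0 as well, since replicate 4 had no count. At E2.75 the null embryos were at 0, 1.54 and 3.74 CPM, the het embryos at 4.47, 42.5, 3.82, 15.8 and 3.80 CPM and the wild-type embryos at 0, 0 and 1.22 CPM.

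The null embryos were below every het embryo for *Dsp* at E2.5, as for 10.2% of the genes, and at E2.75, as for 6.47%, where 3.74 CPM in the highest null embryo (27 counts) met 3.80 CPM in the lowest het embryo (36 counts). Null against het with the stages merged was -3.80 ± 1.45 (adjusted p = 0.151) with edgeR and was called by DESeq2 (-3.83, adjusted p = 0.0641), beside 9.8% of all genes. Without null replicate 3 at E2.75, the null embryo with 27 counts, edgeR called it as well (adjusted p = 0.0563). Het embryos at E2.75 were all above wild-type embryos, as for 4.18% of the genes, with 4.90 ± 1.57 by edgeR (adjusted p = 0.355) and a call by DESeq2 (5.00 ± 1.31, adjusted p = 0.0194). Between the stages in null embryos DESeq2 called *Dsp* as well, beside 9.11% of all genes, where edgeR gave an adjusted p of 0.136.

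**Figure D2:**
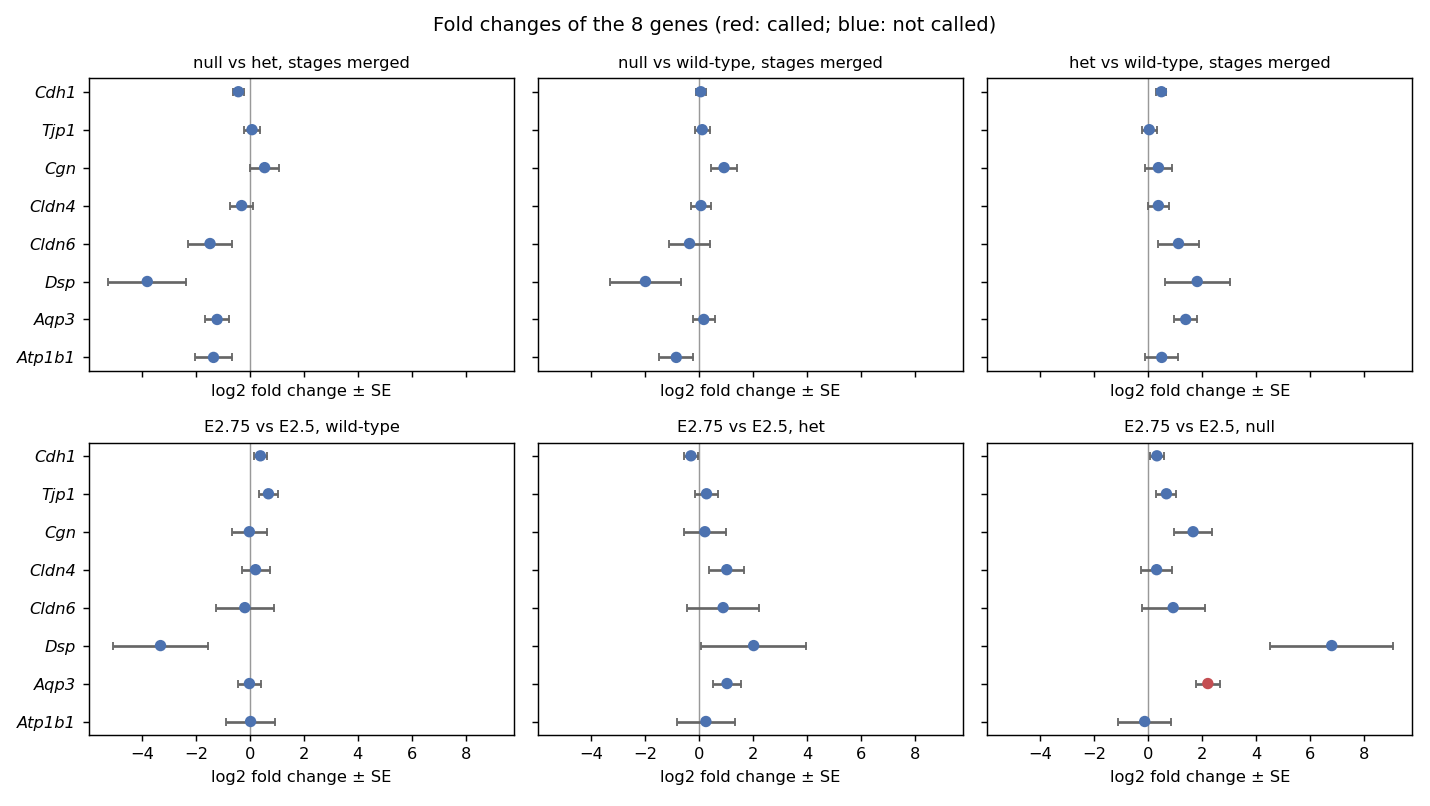
Log2 fold changes of the 8 genes with their SE (horizontal bars) from edgeR, for the 3 genotype comparisons with the stages merged (upper row) and for E2.75 against E2.5 within each genotype (lower row). One point is red, *Aqp3* in null embryos at 2.21, which passed both thresholds; the long bars of *Dsp* belong to groups with counts of 0.

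Read together for null against het with the stages merged, 6 of the 8 members had a negative log2 fold change and 2, *Tjp1* and *Cgn*, a positive one, with a median of -0.82 beside 0.02 over all 13415 genes tested. No member was called there, while 5.73% of all genes were, 3 members had an unadjusted p under 0.05 and DESeq2 called 1. Against wild-type, 5 members were positive and 3 negative (median 0.07), 5.25% of all genes were called and no member had an unadjusted p under 0.05. For het against wild-type all 8 were positive, with a median of 0.50 beside -0.03 over all genes. In that comparison edgeR called 0% of 13415 genes, 934 had an unadjusted p under 0.05, *Cdh1* and *Aqp3* among them, and DESeq2 called 37 up and 28 down but no member. These comparisons share their embryos pairwise, so their medians are not independent of each other.

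Scaling by ERCC spike-ins, synthetic RNAs added to each sample in a set amount, shifted the median of all genes. It put that median at -1.08 for null against het, -0.37 for null against wild-type and 0.71 for het against wild-type. Under it all 8 members were negative for null against het, including *Tjp1* (-0.94) and *Cgn* (-0.33), and 6 were called (*Cdh1*, *Cldn4*, *Cldn6*, *Dsp*, *Aqp3* and *Atp1b1*), with a median of -1.73, while 35.6% of all genes were called, 289 up and 4487 down. Relative to all genes, the members' median was thus lower under both scalings. For null against wild-type 6 members were negative under ERCC scaling in place of 3, with a median of -0.28 beside -0.37 over all genes. ERCC reads were 3.26% to 7.03% of null, 2.06% to 4.64% of het and 2.53% to 7.44% of wild-type libraries.

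By stage, null against het had a median of -1.01 over the members at E2.5, where 0.0126% of the genes were called, and of -0.51 at E2.75, where 4.82% were, and no member was called at either. DESeq2 called *Dsp* and *Aqp3* at E2.5, beside 4.31% of all genes, and no member at E2.75, beside 10.5%. In het against wild-type at E2.5 edgeR called 0% of 15904 genes, 503 had an unadjusted p under 0.05, *Cdh1* among them (0.87 ± 0.30, adjusted p = 1), and DESeq2 called 5 up and 16 down but no member. Null against wild-type at E2.5 called no member with edgeR, beside 1.82% of all genes, and again *Dsp* and *Aqp3* with DESeq2, beside 7.62%. At E2.75 it called no member with edgeR, beside 4.54% of all genes, and *Cgn* with DESeq2. Between the stages 4 members were positive and 4 negative in wild-type embryos (median 0.01), and no member was called, while 7.38% of the genes were. In null embryos 7 were positive (median 0.80, beside 0 over all genes), all but *Atp1b1*, and in het embryos 7 were positive (median 0.59, beside 0.12), all but *Cdh1*, with 0.278% of the genes called and no member. With ERCC scaling 7 were positive in wild-type (median 0.95, beside 0.89 over all genes) and 8 in null embryos (median 1.82, beside 0.97). The mean z-score of the 8 genes was -1.30 to -0.21 in the null embryos at E2.5 and -0.12 to 0.80 at E2.75, in wild-type embryos it was -0.69 to 0.40 and -0.21 to 0.25, and in het embryos, the highest group at both stages by its median, -0.05 to 0.32 and 0.38 to 0.93.

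Per kilobase of exon, which allows genes to be compared, *Cldn4* had the highest mean level and *Dsp* the lowest in all 6 groups of stage and genotype. *Cldn4* was at a mean of 370.5 (E2.5 het) to 764 (E2.75 het) CPM per kb and did not overlap the gene ranked next in any group. *Aqp3* (22.6 to 159 CPM per kb) and *Cdh1* (26.0 to 46.2 CPM per kb) followed. *Aqp3* stood above *Cdh1* with no overlap in het embryos of both stages and in null embryos at E2.75, but in wild-type embryos of both stages and in null embryos at E2.5 their ranges overlapped, and the null mean at E2.5 was lower for *Aqp3* (22.6) than for *Cdh1* (27.0). *Tjp1* (7.93 to 13.2), *Cgn* (6.73 to 21.6), *Cldn6* (4.67 to 20.6) and *Atp1b1* (2.81 to 8.13 CPM per kb) mostly overlapped their neighbours in the order. The tight junction strand gene *Cldn4* was thus the most abundant transcript of the set per length, and the desmosomal *Dsp*, at 0 to 1.46 CPM per kb, the least.

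**Figure D3:**
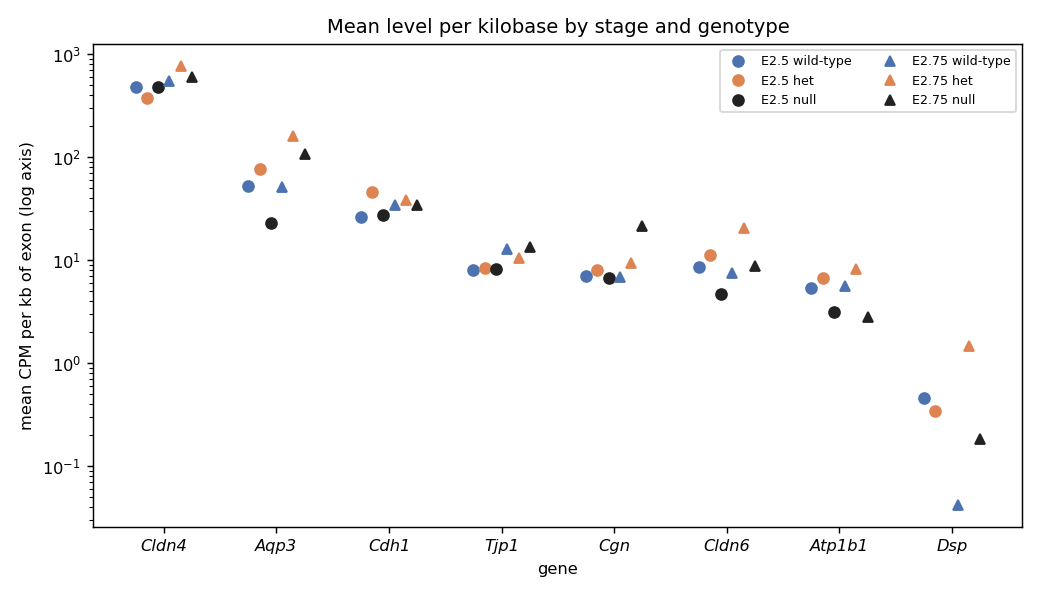
Mean CPM per kilobase of exon on a log axis for each gene, by stage (circles E2.5, triangles E2.75) and genotype (blue wild-type, orange het, black null). *Cldn4* is above 370 in each group; *Dsp* has no point for E2.5 null, where all 4 embryos were at 0.

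Across the 23 embryos the 8 genes were loosely related, a description in which the embryos share stage, genotype and depth. Pearson's r of log2 CPM ran from -0.20 (*Tjp1* and *Atp1b1*) to 0.63 (*Cgn* and *Cldn4*) over 28 pairs. Over all genes tested, the mean z-score of the members was most like *Tex19.1* (r = 0.86), *Dgat1* (0.85) and *Strn4* (0.85). For single members the most similar gene was *Ass1* for *Aqp3* (0.86), *Spns1* for *Cldn4* (0.88), *Ighmbp2* for *Cgn* (0.82), *Zfp451* for *Tjp1* (0.81), *Fam53a* for *Cldn6* (0.79), *Arntl* for *Cdh1* (0.78), *Cdc42se1* for *Dsp* (0.74) and *Tmem126b* for *Atp1b1* (0.69). With the share of reads outside exons, r of the members ran from -0.41 (*Dsp*) to 0.34 (*Tjp1*), and with log2 gene counts from -0.47 (*Tjp1*) to 0.21 (*Dsp*).

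Calls were also made among genes of the wider machinery of the same epithelium. Among 7 other desmosome and keratin genes tested with the stages merged, *Krt18*, a keratin of the trophectoderm, fell in null against het embryos by 2.95 ± 0.80 on the log2 scale (edgeR, adjusted p = 0.0352), and 0 rose. DESeq2 called *Dsg2* and *Krt8* lower as well. At E2.75 *Krt18* was at 0 to 33.9 CPM in null, 86.5 to 215 in het and 36.8 to 92.7 in wild-type embryos. Null embryos were below every het embryo, an arrangement that 6.47% of the genes shared. The highest null embryo (33.9 CPM) lay close to the lowest wild-type one (36.8 CPM). The share of all genes with null embryos below wild-type ones is not given here. By edgeR *Krt18* was not called against wild-type at this stage. Against het it fell by 3.20 ± 0.77 (edgeR, adjusted p = 0.0383), a call lost without null replicate 3 (adjusted p = 0.148). Its partner *Krt8* rose at E2.75 in null against wild-type by 1.94 ± 0.56 (adjusted p = 0.0887), at 11.8 to 74.4 CPM in null, 7.99 to 18.6 in wild-type and 59.3 to 176 in het embryos. In wild-type embryos *Krt8* fell between the stages by 2.73 ± 0.65 (adjusted p = 0.0144). The call of *Krt8* against wild-type held in 2 of 11 fits that left out 1 embryo, with log2 fold changes from 1.61 to 2.38, and was lost without any 1 of the 3 wild-type embryos.

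Among the other water and ion transport genes, *Atp1b3*, another beta subunit of the sodium pump, fell at E2.75 in null against wild-type by 1.66 ± 0.32 (edgeR's quasi-likelihood test, adjusted p = 0.0201), at 50.8 to 91.5 CPM against 178 to 302. The 5 het embryos of that stage, at 80.4 to 152 CPM, were also below the wild-type range and overlapped null ones. The share of all genes with either arrangement is not given here. The call was lost without the shallow null libraries (adjusted p = 0.250). *Fxyd4*, which encodes a small regulator of the pump, fell between the stages in wild-type embryos by 3.38 ± 0.62 (adjusted p = 0.00237) and in null embryos by 2.15 ± 0.60 (adjusted p = 0.0662). *Atp1b3* also fell between the stages in null embryos, by 1.33 ± 0.32 (adjusted p = 0.0333). Both calls in null embryos were lost with ERCC scaling and without the shallow null libraries, and held in 19 and 21 of 23 fits that left out 1 embryo.

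Among the other tight junction genes, of which 14 were tested with the stages merged and 16 at E2.75, *Magi3*, a membrane-associated scaffold, fell in null against het by 4.91 ± 1.35 (adjusted p = 0.0370) and against wild-type by 4.35 ± 1.30 (adjusted p = 0.0577). Its level was at most 0.611 CPM in null embryos. At E2.5 it was at 7.62 to 16.1 CPM in het and at 0.0970 to 10.1 CPM in wild-type embryos. At E2.75 it was at 0 to 13.4 CPM in het (median 0.844) and at 0 to 9.13 CPM in wild-type embryos. Null embryos thus overlapped wild-type ones at both stages and het ones at E2.75. *Cldn7* fell at E2.75 in null against het by 1.07 ± 0.27 (edgeR, adjusted p = 0.0447), at 91.8 to 164 against 200.4 to 312 CPM. Wild-type embryos of that stage, at 88.2 to 133 CPM, overlapped null ones and were below every het embryo, as for 4.18% of the genes. Between the stages *Cldn7* fell in wild-type embryos by 1.54 ± 0.28 (edgeR, adjusted p = 0.00255) and in null embryos by 1.49 ± 0.30 (adjusted p = 0.0129). The call of *Cldn7* against het was lost with RLE normalization and with DESeq2, and both stage calls with ERCC scaling (-0.60 and -0.56). *Tjp3*, which encodes ZO-3, rose at E2.75 in null against wild-type by 4.29 ± 1.07 (adjusted p = 0.0557), from 0.101 to 0.891 CPM in wild-type to 4.29 to 19.5 CPM in null embryos, while het embryos were at 3.11 to 19.3 CPM. *Ybx3* rose in the same comparison by 1.09 ± 0.26 (edgeR, adjusted p = 0.0481), at 167 to 207 CPM in null and 78.0 to 85.8 in wild-type embryos. Het embryos at E2.75, at 119 to 205 CPM, were also above every wild-type embryo, as for 4.18% of the genes, and overlapped null ones. *Ybx3* fell between the stages in wild-type embryos by 1.18 ± 0.28 (edgeR, adjusted p = 0.0145), and both of its calls were lost with ERCC scaling. Without the shallow null libraries the calls at E2.75 of *Tjp3* (adjusted p = 0.366), *Ybx3* (adjusted p = 0.318) and *Cldn7* (-0.62, adjusted p = 0.583) were lost. So were those of *Magi3* against wild-type (adjusted p = 0.159) and of *Cldn7* between the stages in null embryos (adjusted p = 0.468), while *Magi3* against het was still called.

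Of 20 apical polarity genes tested, 0 were called for null against het or wild-type with the stages merged by edgeR, with 0 and 2 at an unadjusted p under 0.05, and DESeq2 called 0 in both. *Pard6b* rose at E2.75 in null against wild-type by 2.24 ± 0.67 (edgeR, adjusted p = 0.0992), at 17.3 to 73.9 against 3.99 to 13.4 CPM. Het embryos of that stage were at 12.9 to 52.8 CPM. The call of *Pard6b* held in 2 of 11 fits that left out 1 embryo, with log2 fold changes from 1.46 to 2.84. It was lost without the shallow null libraries (log2 fold change 1.77). Between the stages in wild-type embryos *Llgl1* (1.52 ± 0.45, adjusted p = 0.0471), *Llgl2* (1.53 ± 0.39, adjusted p = 0.0236) and *Msn* (5.21 ± 1.72, adjusted p = 0.0771) rose and *Crb3* fell by 1.74 ± 0.38 (adjusted p = 0.00801), the last not called with ERCC scaling (-0.91). *Llgl1* also rose in null embryos (2.17 ± 0.51, adjusted p = 0.0311), as did *Pard3* (1.70 ± 0.43, adjusted p = 0.0420), and *Crb3* also fell in het embryos, by 1.72 ± 0.39 (adjusted p = 0.0673), a call that held in 18 of 23 fits that left out 1 embryo and was lost with RLE and with ERCC scaling. *Llgl1* and *Llgl2* encode basolateral polarity proteins and *Crb3* an apical one. *Msn* was at 0 to 0.822 CPM in wild-type embryos at E2.5 and at 0 to 22.4 CPM at E2.75, so these ranges overlapped. Its call held in 17 of 23 fits that left out 1 embryo and was lost with the replicate block. Of 14 other adherens junction genes, the partners of *Cdh1*, 0 were called for null against het or wild-type, merged or at E2.75, with 0 to 3 at an unadjusted p under 0.05 and 0 to 3 called by DESeq2 in each. *Jup*, the catenin gamma of junctions and desmosomes (2.57 ± 0.71, adjusted p = 0.0339), and *Vcl*, the actin linker vinculin (3.14 ± 1.04, adjusted p = 0.0807), rose between the stages in wild-type embryos. The call of *Vcl* held in 16 of 23 fits that left out 1 embryo. In null embryos *Ctnnb1*, which encodes beta-catenin (1.93 ± 0.48, adjusted p = 0.0398), and *Nectin1*, an adhesion molecule (4.28 ± 1.08, adjusted p = 0.0415), rose. These 2 genes and *Pard3* were named after their values were seen. The stage calls of *Ctnnb1*, *Nectin1*, *Pard3* and *Llgl1* in null embryos and those of *Msn* and *Vcl* in wild-type embryos were lost without the shallow null libraries, with adjusted p from 0.102 to 0.667. Across all genes edgeR called 0% for the difference between the null and the wild-type stage change, so none of these stage calls was shown to be particular to a genotype.

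**Figure D4:**
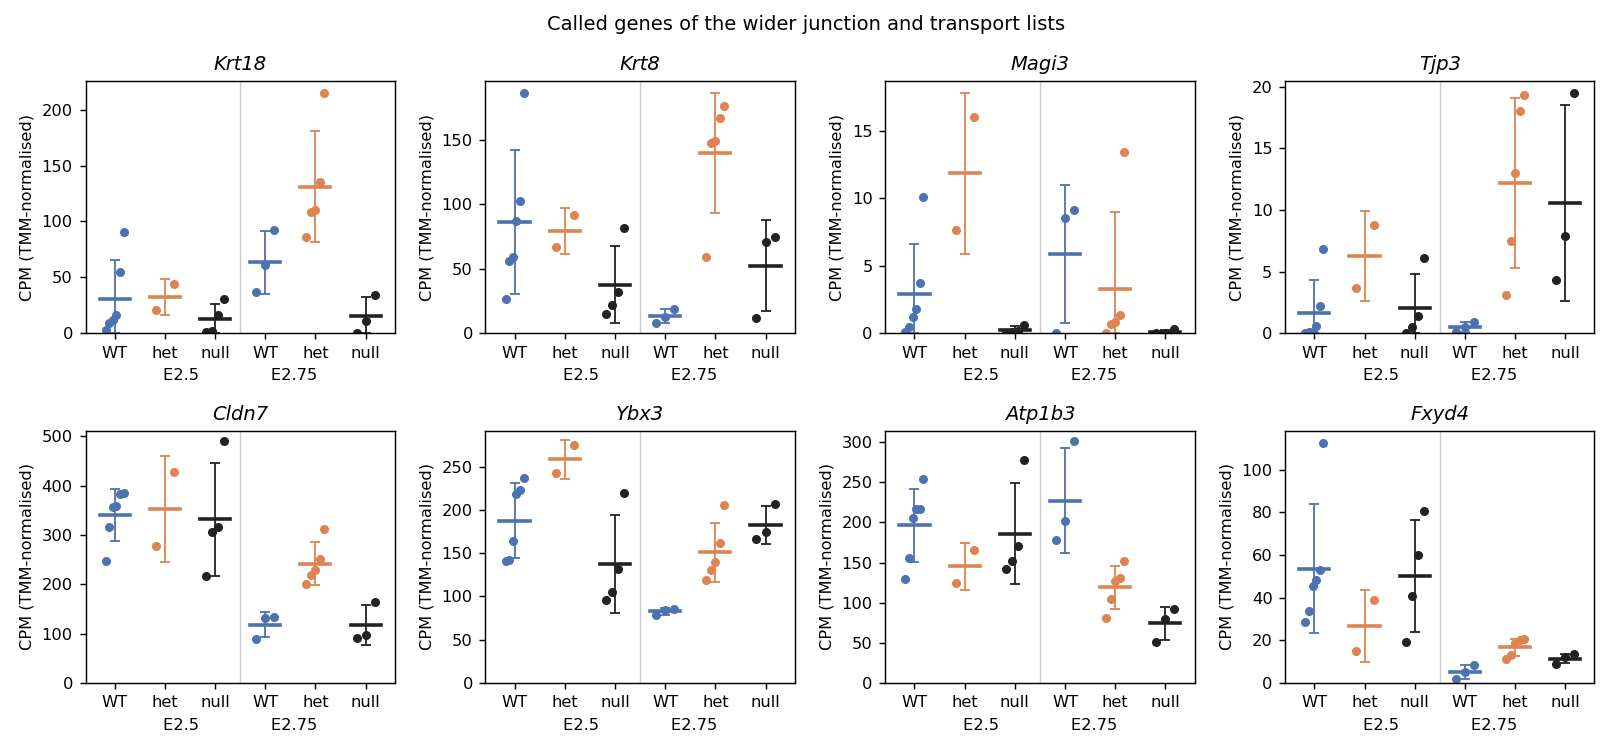
Levels in CPM after TMM normalization, on linear axes from 0, of 8 called genes of the wider junction, keratin and transport lists in each embryo; points are embryos, horizontal bars group means and error bars 1 SD, cut at 0. *Krt18* in the 3 null embryos at E2.75 (0 to 33.9 CPM) lies below the 5 het embryos of that stage (86.5 to 215 CPM), as for 6.47% of the genes.

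The same series holds ChIP-seq peaks of POU6F1, a POU-domain transcription factor, from mouse embryonic stem cells transfected with *Pou6f1-mCherry* and precipitated with anti-mCherry, and these cells are neither morulae nor trophectoderm. A peak found in both replicates against the IgG control lay within 1 kb of a start of 6 members, *Cdh1*, *Tjp1*, *Cgn*, *Cldn4*, *Dsp* and *Atp1b1*, beside 65.4% of the 13399 tested genes with an annotated start. *Aqp3* and *Cldn6* each had a peak in replicate 1 and none in replicate 2. Replicate 1 held 82694 peaks and replicate 2 held 24524. Against the mCherry control 2 members, *Tjp1* and *Cgn*, had a peak in both replicates, beside 23.9% of the tested genes, and at a −log10 q of at least 5 against IgG 3 did, *Tjp1*, *Cgn* and *Atp1b1*, beside 50.2%. The summits of *Cgn* lay 88 bp upstream of the start in replicate 1 and 3 bp downstream in replicate 2. Those of *Tjp1* lay 42 and 25 bp upstream of an internal start. For *Atp1b1* the summit was 95 bp upstream in replicate 1, and separate peaks of replicate 2 had summits 223 bp downstream and 274 bp upstream. The fold over IgG was 22.97 and 9.06 for *Cgn* and 18.2 and 7.34 for *Tjp1* at the internal start. The medians were 16.6 and 6.59 for all tested genes with a peak. Further shared peaks of *Tjp1* against IgG lay near a start at 65527696, with folds of 7.78 in replicate 1 and 3.29 and 4.83 in replicate 2. *Dsp*, with folds of 7.53 and 4.94 and summits 647 and 831 bp downstream of the start, was under the lower quartiles of 11.5 and 5.15, as were *Cdh1* (10.4 and 4.61) and *Cldn4* (10.9 and 4.35).

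The 120 bases before an annotated start are shown for the 2 members whose peaks were called against both controls and for *Aqp3*, the member that was called in the embryos. For *Tjp1* this is the internal start, where its peak of highest fold lies. They are GRCm38 reference (RefSeq), minus strand, written 5′ to 3′. Capitals mark the motif letters found on either strand, namely GGGCGG of SP and KLF factors, the box CCAAT, the grainyhead-like motif AACCNGTT and the TATA box TATAAA. The stretches lie at chr3:94786493-94786612, chr7:65371245-65371364 and chr4:41098184-41098303 in this order, hold no annotated exon, and a shared peak against IgG overlaps the first and the second.
Cgn: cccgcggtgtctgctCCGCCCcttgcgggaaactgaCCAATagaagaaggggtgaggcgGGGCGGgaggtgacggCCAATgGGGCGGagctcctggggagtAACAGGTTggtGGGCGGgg
Tjp1: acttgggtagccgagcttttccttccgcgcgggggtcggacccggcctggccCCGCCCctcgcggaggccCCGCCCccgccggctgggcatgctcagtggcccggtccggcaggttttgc
Aqp3: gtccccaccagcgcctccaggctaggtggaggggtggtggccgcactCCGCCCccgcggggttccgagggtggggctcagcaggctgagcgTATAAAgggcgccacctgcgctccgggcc

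*Cgn* carries 4 GGGCGG matches, 2 CCAAT boxes and a grainyhead-like match that begins 19 bases before the start, *Tjp1* carries 2 GGGCGG matches, and *Aqp3* 1 GGGCGG match and a TATA box that begins 29 bases before the start. In the RefSeq promoter entries, 250 bases before to 50 after the start, 7 members were found, all but *Cdh1*. All 7 held GGGCGG, beside 35.6% of 32817 promoters, at a GC content of 52.3% to 73% beside a median of 52.7%. The grainyhead-like motif was in *Cgn* alone among them and in 2.08% of all promoters, TATAAA in *Aqp3* alone and in 13.6%, GGAATG (TEAD factors) in *Cldn6* alone and in 14.7%, GCCNNNGGC (TFAP2 factors) in *Dsp* and *Tjp1* and in 16.6%, and CCAAT in *Atp1b1* and *Cgn* and in 37.4%. ATGCAAAT, the octamer of POU factors, was in 0 of the 7 and in 1.74% of all promoters. Whether POU6F1 uses this octamer was not tested, and no other POU motif was searched. Such matches are letters and not shown binding sites.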

How the data were processed

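Polyadenylated RNA of 23 single embryos was measured. The deposited unit is the raw count of reads per gene, which the authors made by trimming (Cutadapt 3.4), alignment to GRCm38 (STAR 2.7.8a) and unstranded counting in HTSeq 0.11.4. For ChIP-seq the authors aligned with Bowtie2 2.4.4 and called peaks per replicate with MACS2 2.2.7.1, and the deposited lists give a score, a fold enrichment over control (ratio) and the −log10 of p and q for each peak. List 1 of each replicate used IgG and list 2 the mCherry cells as control.

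Groups came from the labels. The tests of counts used edgeR 4.0.16 under R 4.3.3 (TMM, filterByExpr, quasi-likelihood test, Benjamini-Hochberg adjustment over all genes tested) in 4 fits: 3 genotypes with stages merged, each stage alone, and 6 groups of stage and genotype. Het against wild-type within a stage and the stages of het embryos were added after seeing the data. The fits were tested on simulated data. Gene positions and lengths came from GENCODE vM21, and peaks were compared with bedtools 2.31.1 (shared by at least 1 bp, within 1 kb of a start). The 38 pairs of embryos of 1 group differed by more than sampling noise (chi-square per gene 25.2 to 205). A count of 0 was taken as up to 3 counts, which covers counting error only. Log2 CPM used a prior count of 2. The named genes are the 8 members, the genes of 5 related lists that were called for null against het or wild-type (merged or at E2.75) or between the stages in wild-type, and the genes of most similar pattern. Alternatives were DESeq2 1.42.0, RLE and ERCC scaling, no low-count filter, a replicate block, stage as covariate, 2 groups only, each embryo left out, other peak rules, and an adjusted p under 0.05 with no fold minimum. The members and lists were chosen with earlier results of these data known. The input and control signal of the ChIP-seq was not analysed here. A called gene of the related lists is not reported here.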

Additional observations from a re-analysis of the deposited data

Results flagged for a closer look

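In 5 of 23 groups of 4 to 6 embryos tested over the 8 genes, the highest embryo stood apart from the others by Dixon's criterion on CPM. Its nominal rate of about 1 of 20 groups holds for normally distributed values. Whether these CPM are so distributed was not tested, so the 5 of 23 cannot be set against that rate. *Cldn6* was at 99.1 CPM in E2.75 het replicate 3 (next 23.3) and at 52.0 CPM in E2.5 wild-type replicate 6 (next 15.3). The same het embryo had the highest *Tjp1*, 135 CPM (next 73.8). *Cldn4* was at 1753.5 CPM in E2.5 null replicate 1 (next 601), and *Atp1b1* at 29.9 CPM in E2.5 null replicate 4 (next 3.64). E2.5 wild-type replicate 6 is also the wild-type embryo with the lowest *Dis3*.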

How the results depend on the processing

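The 86 log2 fold changes checked gave 2258 values under alternatives, of which 2084 kept direction and call, 119 lost a call, 51 gained one and 4 reversed, none of these 4 called in either setting. With ERCC scaling *Cgn* turned to -0.33 for null against het merged and *Tjp1* to -0.36 at E2.75. With the shallow null libraries (E2.75 null replicates 1 and 2) left out, a setting chosen after seeing the data, *Cldn4* turned to 0.22 for null against het at E2.75. Leaving out single embryos gave *Cdh1* a stage change in het embryos of -0.67 to 0.19. The number of members called moved as follows, and where no cause is stated the cause was not tested. For null against het merged it went from 0 to 1 with DESeq2, with no low-count filter, with stage as covariate, with 2 groups only and without the shallow null libraries, to 6 with ERCC scaling (35.6% of all genes called), and ranged from 0 to 2 without single embryos, with *Aqp3* called without E2.75 null replicate 2 and *Aqp3* and *Dsp* without replicate 3. At E2.5 it went to 2 (DESeq2) and 3 (ERCC) against het, and to 2 (DESeq2) and 1 (no filter) against wild-type. At E2.75 it went to 3 (ERCC) and 1 (no filter) against het, to 1 (DESeq2, no filter) against wild-type, and to 2 (DESeq2, no filter) for het against wild-type. Ranges without single embryos were 0 to 1 in these, except null against het at E2.5 (0). They rested on *Aqp3* without E2.5 null replicate 1 or E2.75 wild-type replicate 2, and on *Cgn* without E2.75 null replicate 1 or het replicate 3. Between the stages it went to 2 (ERCC) in wild-type, and from 1 in null embryos to 2 (DESeq2), 5 (ERCC), 3 (no filter) and 0 (shallow null libraries left out, where 1 null embryo remains at E2.75), with 1 to 2 without single embryos (*Cgn* joins without E2.5 null replicate 1). For the null minus the wild-type stage change it went to 2 (DESeq2, no filter). With ERCC scaling 12.3% (E2.5) and 17.3% (E2.75) of all genes were called for null against het, and 17.5% (wild-type) and 10.8% (null) between the stages. With no filter, 1266 genes were called up and 542 down of 33616 for null against het merged. Of the same 33616, 510 were called up and 312 down between the stages in null embryos. For the null minus the wild-type stage change these were 126 and 95. With no filter at E2.5, 399 genes were called up and 140 down of 29669 for null against wild-type. At E2.75, of 29549 genes, 667 were called up and 654 down for null against het. Against wild-type these were 482 and 640 for null and 157 and 110 for het. Members with POU6F1 peaks went from 6 to 3 at a −log10 q of at least 5 and to 2 with the mCherry control. The replicate numbers do not pair the embryos (residual correlations of 12 same-numbered pairs -0.0991 to 0.0858), and the replicate block left *Aqp3* in null embryos between the stages the 1 member called (2.29, adjusted p = 0.0335). The shallowest null libraries held 1914128 and 1690192 gene counts, and whether depth limited the number of calls was not tested.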
